A study of Mus musculus with 12 samples.

Results

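The miR-23/27/24 miRNAs come from a pair of paralogous clusters, and 6 of the 1900 mature miRNAs in the table were chosen by name for them. These were mmu-miR-23a-3p and mmu-miR-27a-3p of the a cluster, mmu-miR-23b-3p, mmu-miR-27b-3p and mmu-miR-27b-5p of the b cluster, and mmu-miR-24-3p, which both clusters encode. Small RNA was sequenced from the gastrocnemius of C57BL/6 mice aged 6 months (young) or 24 months (aged), with 6 libraries in each age group. The study's methods describe all animals as male, and no treatment or allele separates the groups. Levels are given as FPKM, reads per unit length of the miRNA and per mapped reads, and tests were made on log2(FPKM + 48.2), where 48.2 FPKM is the pseudocount.

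MiRNAs of one family share the seed, bases 2 to 8 of the mature strand, which pairs with target mRNAs. Each cluster is thought to be transcribed as one primary transcript and then cut by Drosha and Dicer into separate hairpins, so miRNAs of a cluster share a promoter but can differ in processing and in decay. In muscle, miR-27 is known to repress Pax3, a transcription factor of muscle progenitors, as well as myostatin, a secreted inhibitor of muscle growth. MiR-23a is known to repress Trim63 and Fbxo32, ubiquitin ligases of muscle atrophy, and miR-24 is known as a regulator of the cell cycle and of differentiation.

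Mature strands of the members are shown with their seeds in capitals, because the copies of miR-27 have to be told apart by bases outside the seed. Mature sequences were taken from RefSeq (GRCm38.p6, the mm10 assembly), where 5 of the 6 members matched by name, all but miR-23b-3p. The order is from 5′ to 3′.
miR-23a-3p: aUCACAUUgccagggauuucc
miR-27a-3p: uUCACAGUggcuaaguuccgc
miR-27b-3p: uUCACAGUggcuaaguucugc
miR-24-3p: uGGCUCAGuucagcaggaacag
miR-27b-5p: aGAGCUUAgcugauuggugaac
MiR-27a-3p and miR-27b-3p have the same length of 21 nucleotides and differ by 1 base, C19U, counted from the 5′ end with the base of miR-27a-3p first. Among 1679 mature sequences searched, no other miRNA had the miR-27 seed than these copies, and 4 others had that of miR-24-3p. The seed of the passenger strand miR-27b-5p was found in no other of these sequences.

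The a cluster lies on chromosome 8 and the b cluster on chromosome 13, both on the plus strand. In GENCODE M21 the hairpins of miR-23a, miR-27a and miR-24-2 span chr8:84208518-84208921, outside the annotated genes considered. The hairpins of miR-23b, miR-27b and miR-24-1 span chr13:63300484-63301275 within the protein-coding gene 2010111I01Rik, where Mir23b is intronic and Mir27b and Mir24-1 overlap an annotated exon. They also lie in an intron of Fancc, which is read from the opposite strand. The hairpins of miR-27 are shown because the levels of their arms were compared, and the capitals mark the 5p and the 3p arm.
Mir27a: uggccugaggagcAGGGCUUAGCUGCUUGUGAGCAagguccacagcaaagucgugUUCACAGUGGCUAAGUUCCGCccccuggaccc
Mir27b: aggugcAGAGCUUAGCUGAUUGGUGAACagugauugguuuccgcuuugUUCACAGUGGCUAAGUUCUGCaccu

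Depth differed widely between libraries. Young libraries held an estimated 198336 to 6239342 miRNA reads and aged libraries 123042 to 7515016, with aged replicate 5 the shallowest. Most aged libraries were deeper than most young ones. Leaving aside young replicate 6, the young libraries reached at most 550277 reads. Leaving aside aged replicate 5, the aged libraries held at least 1244484. Depth thus went partly with age. The lowest read number behind any value of a guide strand was 50 for miR-23a-3p and 1875 for miR-27b-3p, for which counting error alone was about 14.1% and 2.31%. MiR-27b-5p rested on far fewer reads, from 1 in aged replicate 5 to 133 in aged replicate 3. Markers of skeletal muscle were read as the tissue label says. MiR-133a-3p, miR-1a-3p and miR-206-3p were above 0 in every library, while miR-499-5p and miR-208b-3p were at 0 in some.

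To compare the paralogs, the level of each copy was first set side by side within a library. The miRNA mmu-miR-27b-3p dominated the family. It was at 482443 FPKM in the lowest, 652318 at the median and 851708 in the highest young library, and at 696614, 751878 and 778318 FPKM in aged muscle. It made up 1.54% ± 0.377 of the summed FPKM of young libraries and 1.69% ± 0.122 of that of aged ones (SD, n = 6), and ranked 13 among all miRNAs by mean level. The other guide strands were much lower. The a copy, mmu-miR-27a-3p, was at 21619, 35252 and 40063.5 FPKM (lowest, median and highest) in young and at 36611, 38969 and 42055 FPKM in aged muscle. For mmu-miR-23b-3p the levels were 18054, 23104 and 29944 FPKM in young and at 21921, 24602 and 27554.5 FPKM in aged muscle. For mmu-miR-23a-3p they were 11347, 15359 and 21321 FPKM in young and at 18179, 20102 and 20882 FPKM in aged muscle. For each of these miRNAs the young libraries were spread widely and most aged libraries lay inside the young range.

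By mean level the order was miR-27b-3p, miR-27a-3p, miR-24-3p, miR-23b-3p, miR-23a-3p and miR-27b-5p. MiR-24-3p and miR-23b-3p did not differ beyond their spread, at 22915 ± 3906.5 and 23348 ± 4699 FPKM in the young group and 27139 ± 4976 and 24683 ± 2149 FPKM in the aged group (SD, n = 6). The 5 guide strands together held 1.77% ± 0.408 of the summed FPKM of young and 1.95% ± 0.132 of that of aged libraries (SD, n = 6).

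**Figure D1:**
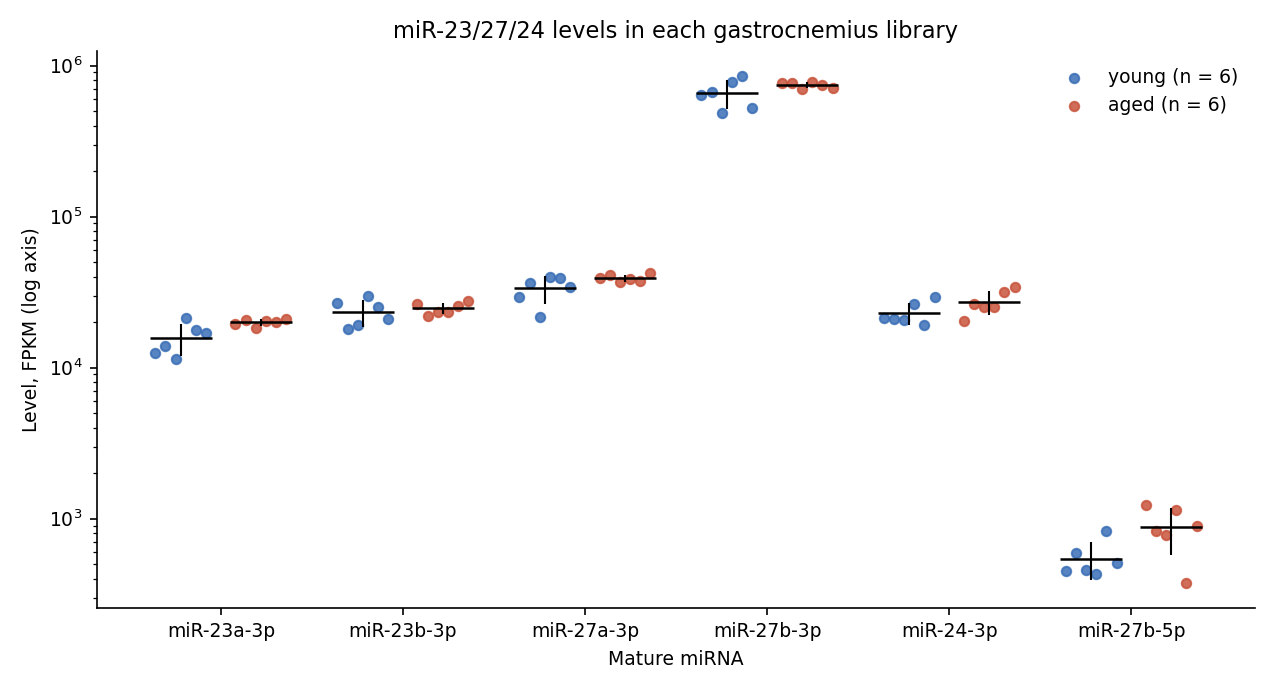
FPKM (log axis) of the 6 members in each library, young in blue and aged in red, with the group mean (horizontal line) and SD (vertical line), n = 6 each. MiR-27b-3p lies above all other members in every library, and the young libraries of miR-23a-3p, miR-27a-3p and miR-27b-3p are more spread out than the aged ones.

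The b copy was higher than the a copy for both pairs in all 12 libraries. MiR-27b-3p was 19.3-fold above miR-27a-3p (geometric mean), from 15.1-fold to 22.3-fold over the libraries. The log2 ratio of a to b was -4.27 ± 0.160 (SD, n = 12; two-sided exact sign-flip permutation test, adjusted p = 0.000488, the smallest that this design can give). For miR-23 the copies were far closer. MiR-23b-3p was 1.36-fold above miR-23a-3p, from 1.06-fold to 2.14-fold, with a log2 ratio of -0.45 ± 0.261 (SD, n = 12; two-sided exact sign-flip permutation test, adjusted p = 0.000488). Within each age group of 6 the test gave 0.0312 for either pair, again the smallest possible. The unequal share of the copies was thus seen in each age group, and its size was very different for miR-23 and miR-27 although each pair comes from the same clusters. Differences between sequences in how well they enter a small RNA library were not tested and would move such ratios between miRNAs. The miR-27 copies differ by 1 base near the 3′ end. For miR-23b-3p no mature sequence was matched, so the bases that tell the miR-23 copies apart were not compared. Whether reads of either copy were counted for the other was not tested for miR-27 or for miR-23.

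MiR-24-3p has the same mature sequence in both clusters, so its reads cannot be assigned to one of them. The table held it in 2 rows, one for each genomic copy, which were added. The rows were close but not equal, with a mean log2 difference of -0.08 ± 0.218 (SD, n = 12) between the first and the second, and they were identical in 0 of the 12 libraries. Each row was repeated digit for digit in all 12 libraries under the name miR-3074-5p, which is annotated on the opposite strand and overlaps miR-24-3p by 20 nucleotides. That antisense miRNA is shown to make the overlap visible, with its seed in capitals.
miR-3074-5p: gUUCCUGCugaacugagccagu
Both names therefore share the same count, and which strand the reads came from was not tested. The values of miR-3074-5p were given no weight of their own, and those of miR-24-3p may include reads of the opposite strand.

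The 5p arms of miR-24 differ between the hairpins and can be told apart. They are shown with the seed, which they share, in capitals.
miR-24-2-5p: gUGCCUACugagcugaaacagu
miR-24-1-5p: gUGCCUACugagcugauaucagu
MiR-24-2-5p of the a cluster was at 4292 ± 631 FPKM in young and 5231 ± 1002 FPKM in aged libraries (SD, n = 6). MiR-24-1-5p of the b cluster was at 219 ± 142 and 263 ± 166 FPKM (SD, n = 6), and at 0 in young replicate 4 and aged replicate 5. The a-cluster arm was higher in all 12 libraries, by 20.7-fold at the median of the 10 libraries where both were above 0 (range 8.40 to 31.1). This order of the clusters is the opposite of that of miR-23 and miR-27. It was noticed in the data and was not tested.

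Next, the members were compared between the ages. In a limma fit of 482 miRNAs with p-values adjusted by Benjamini-Hochberg, 0 of the 6 members had an adjusted p-value under 0.05, where 2.9% of all miRNAs tested had one. At an unadjusted p under 0.05, 1 of the 6 passed with limma (12.9% of all miRNAs tested, 5.6% with the aged group higher) and 1 of the 6 with an exact permutation test per miRNA (13.7% of all miRNAs tested). The fitted difference was above 0 for all 6 members, against 55.4% of all miRNAs tested, although that of miR-27b-3p turned negative with quantile normalization. The median log2 difference was 0.25 over the members and 0.07 over all miRNAs tested. The groups overlapped for all 6 members, as they did for all but 2.7% of the miRNAs tested.

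The smallest p-value belonged to miR-23a-3p (two-sided exact permutation test, unadjusted p = 0.0281). Its mean was 15616 ± 3736 FPKM in the young and 19891 ± 975 FPKM in the aged group (SD, n = 6). The log2 difference was 0.38 (SE 0.14, 95% interval 0.09 to 0.67, limma adjusted p = 0.189). Each of the 6 aged libraries exceeded the young median, but none exceeded the highest young library, replicate 4. Without young replicate 4 the log2 difference was 0.48 with a limma adjusted p of 0.0442, so that 1 library decided the call.

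The cluster partner miR-27a-3p had means of 33425 ± 6984 FPKM in young and 39148 ± 2064 FPKM in aged libraries (SD, n = 6). Its log2 difference was 0.26 (95% interval -0.02 to 0.53, limma adjusted p = 0.407). All 6 aged libraries were above the young median. Without young replicate 3 the log2 difference of miR-27a-3p was 0.14, that of miR-27b-3p 0.12 and that of their sum 0.12. MiR-24-3p differed by 0.24 (95% interval -0.04 to 0.52, limma adjusted p = 0.461) and miR-27b-3p by 0.21 (95% interval -0.07 to 0.48, limma adjusted p = 0.503). MiR-23b-3p had the smallest difference, of 0.10 (95% interval -0.17 to 0.37, limma adjusted p = 0.804), and it ran from 0.03 without young replicate 2 to 0.18 without young replicate 4. The upper bounds for the 5 guide strands correspond to levels from 1.29-fold to 1.59-fold those of young muscle, so that larger rises lie outside these intervals.

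MiR-27b-5p, the passenger strand, was at 428 FPKM in the lowest, 483 at the median and 832 in the highest young library, and at 377, 862 and 1226 FPKM in aged muscle. Of the aged libraries 5 lay above the young median, and the lowest, replicate 5, had 1 read. The log2 difference was 0.60 (95% interval -0.11 to 1.30, limma adjusted p = 0.468). Of its 98 reads in young muscle 73 came from replicate 6, and of its 261 reads in aged muscle 133 came from replicate 3, the deepest library of each group, so read totals were not compared. Without aged replicate 5 the log2 difference was 0.80 with a limma adjusted p of 0.152.

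**Figure D2:**
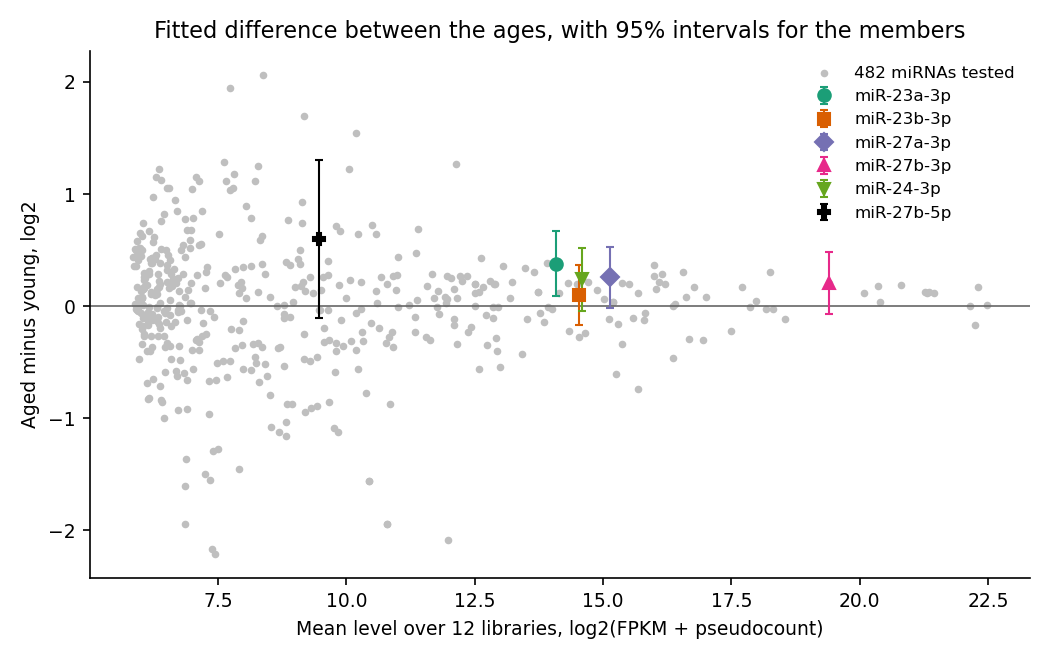
Fitted aged minus young difference (log2) against the mean level, log2(FPKM + 48.2), for the 482 miRNAs tested (grey) and the 6 members (colored, with 95% limma intervals). All members lie above 0 within the cloud of the other miRNAs, and only the interval of miR-23a-3p leaves out 0.

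The paralogs were also added, since copies with one seed can pair with the same targets. The summed level of miR-23a-3p and miR-23b-3p differed by 0.21 on the log2 scale (interval -0.05 to 0.47, two-sided exact permutation test, adjusted p = 0.216). That of miR-27a-3p and miR-27b-3p differed by 0.21 (interval -0.08 to 0.51, exact permutation test, adjusted p = 0.216), and that of the 5 guide strands by 0.21 (interval -0.07 to 0.49, exact permutation test, adjusted p = 0.216). These p-values were adjusted over 8 values, the 3 sums and the 5 ratios that follow, and the 95% intervals invert the same test. MiR-27b-3p made up 1.54% of the 1.77% of summed FPKM that the guide strands held in young libraries, and 1.69% of 1.95% in aged ones. The sums that include it therefore mostly repeat its own log2 difference of 0.21. The 5 guide strands do not all share a seed.

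Apart from the pseudocount added to both levels, ratios within a library do not depend on how that library was scaled. The pseudocount weighs most on miR-27b-5p, the member with the lowest levels. The ratio of miR-23a-3p to miR-23b-3p was 0.665 in young and 0.808 in aged muscle (geometric means), with all 6 aged libraries above the young median. The log2 difference was 0.28 (interval 0.01 to 0.57, two-sided exact permutation test, p = 0.0411, adjusted p = 0.216). It did not pass the adjustment, and without young replicate 1 it was 0.18 with an unadjusted exact permutation p of 0.0823. The lowest ratio was 0.467 in young replicate 1 and the highest 0.940 in aged replicate 2. For miR-27a-3p to miR-27b-3p the ratio was 0.0510 in young and 0.0527 in aged muscle, a log2 difference of 0.05 (interval -0.17 to 0.25, exact permutation test, adjusted p = 0.636). A change of the miR-27 copy balance beyond these bounds therefore lies outside the interval.

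Between cluster partners, the log2 ratio of miR-23a-3p to miR-27a-3p averaged -1.10 ± 0.181 in the young and -0.97 ± 0.0449 in the aged group (SD, n = 6), which differ by 0.12 (interval -0.04 to 0.30, exact permutation test, adjusted p = 0.216). The log2 ratio of miR-23b-3p to miR-27b-3p averaged -4.81 ± 0.262 and -4.91 ± 0.157 (SD, n = 6), with a difference of -0.11 (interval -0.38 to 0.17, exact permutation test, adjusted p = 0.465). In the a cluster the partners were about 1 log2 unit apart, while in the b cluster they were almost 5 apart in each age group.

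The 2 arms of miR-27b were very unequal. The 3p arm was 1024-fold above the 5p arm at the median library, from 626-fold to 1965-fold. The log2 ratio of 5p to 3p averaged -10.1 ± 0.321 in the young and -9.73 ± 0.546 in the aged group (SD, n = 6), which differ by 0.39 (interval -0.19 to 0.91, exact permutation test, adjusted p = 0.216). Without aged replicate 5, where the 5p arm had 1 read, the difference was 0.60 with an exact permutation adjusted p of 0.0173. The 5p arm of miR-27a was rarer, at 64.0 ± 89.1 FPKM in young and 127 ± 81.4 FPKM in aged libraries (SD, n = 6), and above 0 in 8 libraries, where the 3p arm was 253-fold higher at the median.

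**Figure D3:**
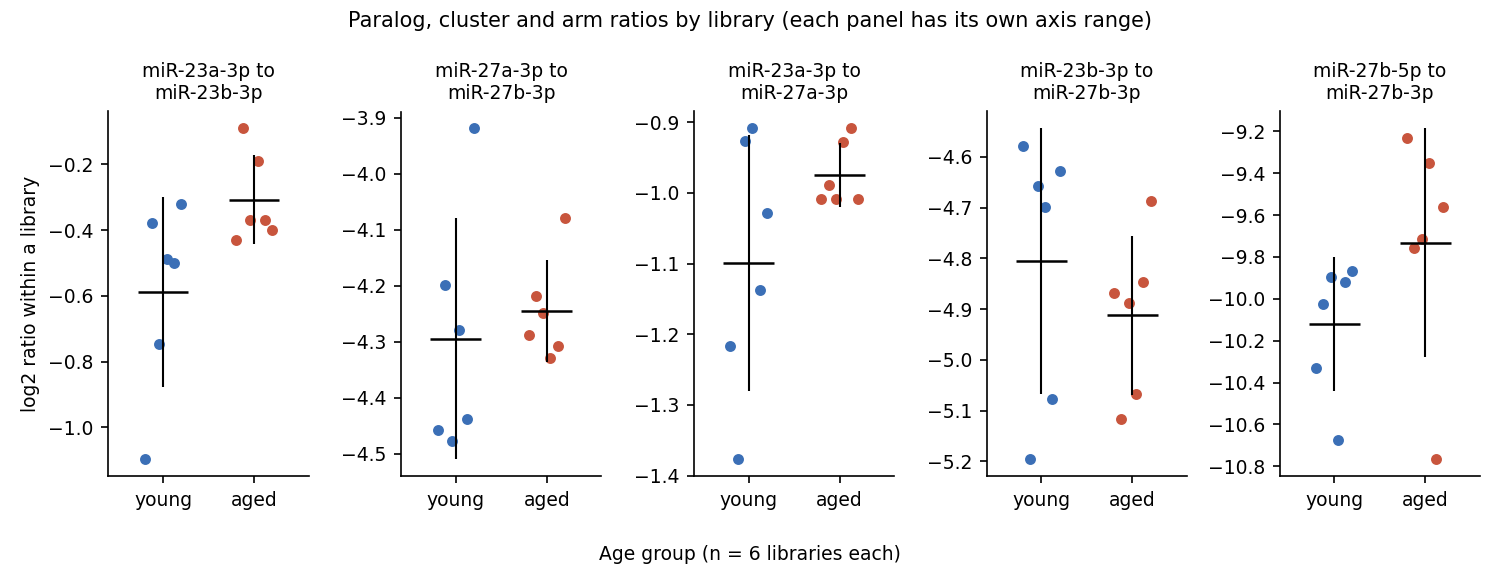
Log2 ratios within each library, young in blue and aged in red, with group means (horizontal lines) and SD (vertical lines), n = 6 each. The panels have separate axis ranges. In the ratio of miR-23a-3p to miR-23b-3p every aged point is above the young median, and in the arm ratio of miR-27b aged replicate 5 lies lowest at -10.8.

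The young libraries varied more than the aged ones for most members. The SD of the log2 level was 0.34 in young and 0.07 in aged muscle for miR-23a-3p, 0.34 and 0.08 for miR-27a-3p, 0.32 and 0.06 for miR-27b-3p, and 0.29 and 0.13 for miR-23b-3p. In the other order, it was 0.23 and 0.27 for miR-24-3p and 0.33 and 0.56 for miR-27b-5p, which had the fewest reads. Of 199 miRNAs above 0 in all libraries with a mean of at least 482 FPKM, 74.4% had the larger SD in young muscle, with medians of 0.33 and 0.27. MiR-23a-3p rested on 71 to 163 reads in young replicates 1 to 5, but on 524 to 2963 in the aged libraries other than replicate 5. MiR-27b-3p had at least 3025 reads in every young library. The difference in spread and the part of depth in it were not tested. In young replicate 3 miR-23a-3p, miR-27a-3p and miR-27b-3p were all at their lowest.

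To see whether miRNAs of one cluster followed each other from library to library, log2 levels were correlated over the 12 libraries. Of the 8 relations computed, 3 with miR-24-2-5p were added after the data were seen, and p-values were adjusted over all 8. MiR-23a-3p and miR-27a-3p followed each other closely, with Pearson's r = 0.889 (permutation test, p = 0.0001, adjusted p = 0.0008) and Spearman's rho = 0.890 (permutation test, adjusted p = 0.00216). Without young replicates 1 and 3, the farthest from the median, r was 0.715, and within the ages r was 0.857 in young and 0.816 in aged muscle. As background, the median r of miR-23a-3p with 215 other miRNAs above 0 in all libraries was 0.208.

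The b cluster gave a looser relation. MiR-23b-3p and miR-27b-3p had r = 0.580 (permutation test, p = 0.0465, adjusted p = 0.0744) and rho = 0.438 (permutation test, adjusted p = 0.206), and r was 0.631 in young but -0.293 in aged muscle. Without young replicates 2 and 3 it was 0.407. Whether the clusters differ in this was not tested.

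The paralogs miR-27a-3p and miR-27b-3p, on different chromosomes, had r = 0.809 (permutation test, p = 0.00616, adjusted p = 0.0246) and rho = 0.744 (permutation test, adjusted p = 0.0298). Without young replicates 1 and 3 r was 0.714, but within the ages it was 0.784 in young and 0.166 in aged muscle, so that the relation was not seen within the aged group. Because these copies differ by 1 base, reads of either may have been counted for the other, which was not tested. MiR-23a-3p and miR-23b-3p had r = 0.556 (permutation test, adjusted p = 0.0812) and rho = 0.545 (permutation test, adjusted p = 0.115). The value was 0.801 without young replicates 1 and 3, 0.591 in young and 0.140 in aged muscle. By r with miR-23a-3p, miR-23b-3p ranked 53 among the 215 other miRNAs. Reads of either miR-23 copy may also have been counted for the other, which was not tested.

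For the arms of miR-27b r was 0.483 (permutation test, adjusted p = 0.132) and rho 0.396 (permutation test, p = 0.201), with r = 0.588 without aged replicates 1 and 5, 0.513 in young and 0.328 in aged muscle. MiR-24-2-5p had r = 0.631 with miR-23a-3p (permutation test, adjusted p = 0.0605, rho = 0.566, adjusted p = 0.115) and r = 0.585 with miR-27a-3p (permutation test, adjusted p = 0.0605, rho = 0.606, adjusted p = 0.109). Without young replicate 3 and aged replicate 5 these were 0.811 and 0.658. Within the ages r with miR-23a-3p was 0.947 in young and -0.182 in aged muscle, and r with miR-27a-3p was 0.754 and 0.271. With miR-24-3p, its own 3p arm, which the other hairpin also feeds, r was 0.0916 (permutation test, adjusted p = 0.772, rho = 0.00699, adjusted p = 0.991), 0.281 without the same 2 libraries, 0.694 in young and -0.680 in aged muscle. MiR-24-2-5p rested on as few as 9 reads in a library, and the aged values include aged replicate 5, the shallowest library. Differences between the ages in these r were not tested.

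**Figure D4:**
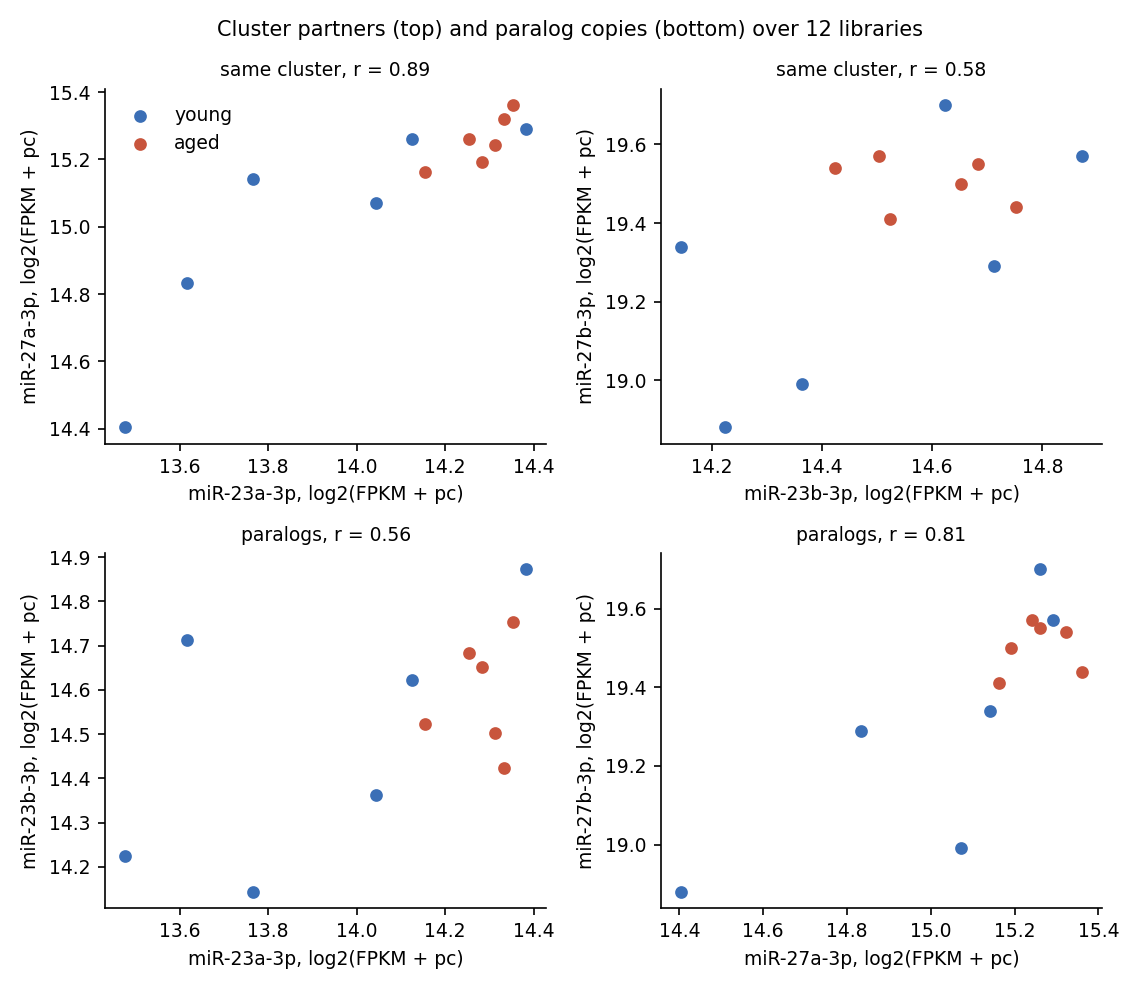
Log2 levels, log2(FPKM + pc) with pc the pseudocount of 48.2 FPKM, of cluster partners (top) and paralog copies (bottom) in the 12 libraries, young in blue and aged in red. MiR-23a-3p and miR-27a-3p lie along a line in both ages (r = 0.889), while the aged libraries of the other pairs form a compact group with no clear trend.

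Ranked by r over the 12 libraries as a description, the miRNA most like miR-27a-3p was miR-23a-3p, followed by miR-107-3p (r = 0.853). MiR-23a-3p was closest to miR-26b-5p (r = 0.891), with miR-27a-3p next. MiR-27b-3p was closest to let-7i-5p (r = 0.907) and miR-30c-2-3p (r = 0.868), and miR-23b-3p to miR-195a-5p (r = 0.781) and miR-196b-5p (r = 0.701). For miR-24-3p, after its opposite-strand copy, it was miR-146a-5p (r = 0.855). Only for the a cluster was the partner among the 2 closest, while miR-27b-3p ranked 11 for miR-23b-3p.

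Of the other arms and opposite-strand miRNAs of the clusters, a list of 8, 6 could be tested and 0 had a limma adjusted p under 0.05 (0 also at an unadjusted p under 0.05), where 2.9% and 12.9% of all miRNAs tested passed. Their median log2 difference was 0.25, from 0.17 to 0.78, but the opposite-strand names share reads with the miR-24 arms. MiR-24-2-5p differed by 0.27 (95% interval -0.08 to 0.62, limma adjusted p = 0.494). MiR-23a-5p had no read in any library, and miR-23b-5p had 1 read in aged replicate 3 alone, so the 5p arm of neither miR-23 hairpin was measurable at this depth.

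Among 8 other miRNAs linked to satellite cells or to muscle atrophy, 1 was higher in aged muscle with a limma adjusted p under 0.05 (0.622% of all miRNAs tested) and none was lower. Their median log2 difference was 0.30, against 0.07 over all miRNAs tested. That was miR-206-3p, which represses Pax7 in satellite cells, at 1.54 (SE 0.39, limma adjusted p = 0.0296). MiR-29b-3p differed by 0.69 (limma adjusted p = 0.164) and miR-31-5p, which holds back Myf5 in quiescent satellite cells, by 0.85 (limma adjusted p = 0.501). MiR-31-5p was near the floor, above 0 in 8 libraries, with 11 reads in all young and 20 in all aged libraries. MiR-206-3p had 1 read in its lowest library. The muscle-specific miR-1a-3p differed by 0.17 (limma adjusted p = 0.651) and miR-133a-3p by -0.17 (limma adjusted p = 0.679).

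MiR-23, miR-27 and miR-24 are also read in other cells of muscle tissue, endothelium among them, and in whole tissue fewer cells of a type and less RNA per cell cannot be told apart. The endothelial markers miR-126a-3p and miR-126a-5p were above 0 in all libraries. Their summed level was between 307743 and 455685 FPKM in young and between 336491 and 382329 FPKM in aged libraries. Their log2 differences were 0.04 and -0.02 (limma adjusted p = 0.944 and 0.961). The fibroblast markers miR-199a-3p and miR-214-3p differed by 0.07 and -0.03, with summed levels of 28259.8 to 38674 FPKM in young and 27626 to 48475 FPKM in aged libraries.

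The red blood cell markers miR-451a and miR-144-3p differed by -0.34 and -0.77 (limma adjusted p = 0.583 and 0.189). None of the 4 white blood cell markers passed, at -0.17 for miR-150-5p, 0.67 for miR-223-3p, 0.37 for miR-142-3p and 0.35 for miR-142-5p. Of the smooth muscle markers miR-143-3p differed by 0.17 and miR-145a-5p by -0.43 (limma adjusted p = 0.679 and 0.0975). In their lowest library miR-144-3p, miR-223-3p, miR-142-3p and the fibroblast marker miR-214-3p rested on 1 read each. The part of these cells in the levels of miR-23/27/24 was not tested.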

How the data were processed

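Per the study's methods, the authors trimmed adaptors, aligned the reads with BWA to the mm10 assembly, and derived FPKM of the mature miRNAs annotated in miRBase 20. The submitters' processing notes name TopHat2 instead. The deposited values are log2 of FPKM with no pseudocount, where 0 stands for no read. Use of strand and handling of reads that fit several places are not given in the sources used here.

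The log was undone and genomic copies were summed (2035 rows, 1900 miRNAs). As pseudocount, the smallest nonzero FPKM of each library was taken and their median, 48.2 FPKM, used. The model was run on 482 miRNAs with reads in 5 or more of 12 libraries, using limma 3.58.1 (R 4.3.3; lmFit, eBayes with trend, aged against young, two-sided, Benjamini-Hochberg at 0.05). The fit was also run on simulated data with planted changes larger than those of any member. That run therefore does not show the power for changes as small as those of the members. Ratios and sums were compared by exact permutation (Python 3.11.15, NumPy 2.4.6). Reads were estimated from steps of whole reads, which 99.6% of 2664 low values (under 10 reads) met within 0.15, with 22 nucleotides assumed where no length was found. The methods name 6 mice at each age, but the labels do not tie libraries to animals. Where libraries shared an animal, p-values measure only the spread between libraries.

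Members and lists were chosen with earlier results of these data known. Named are members, listed miRNAs and markers (miR-142a in the list is miR-142 in the table), and the 2 miRNAs most like each guide strand by r. Alternatives were other pseudocounts, filters, scalings, tests, a depth covariate, a replicate block, the mean of copies and leaving out each library.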

Additional observations from a re-analysis of the deposited data

Results flagged for a closer look

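Of 28 groups of 6 libraries (members, ratios and sums in each age), 1 held a library that stood apart from the rest (Dixon's criterion). About 1 in 20 groups, here 1.4, would be marked by chance. The log2 ratio of miR-27b-5p to miR-27b-3p was -10.8 in aged replicate 5, against -9.76 to -9.23 in the other aged libraries. This library was the shallowest, and its miR-27b-5p value was 1 read, while miR-27b-3p had 1875 reads there. The part of depth in this value was not tested.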

How the results depend on the processing

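Of 313 recomputed values, 309 kept their direction and their side of the threshold, the 2 differences between paralogs within a library among them. With quantile normalization the log2 difference of miR-27b-3p was -0.11 (limma adjusted p = 0.708), and the cause was not tested. Leaving out each library in turn gave 0 to 1 members called. It gave log2 differences of 0.30 to 0.48 for miR-23a-3p, with limma adjusted p from 0.0442 (without young replicate 4) to 0.344. The arm ratio of miR-27b differed by 0.28 to 0.60, with exact permutation adjusted p from 0.0173 (without aged replicate 5, which had 1 read of the 5p arm) to 0.427, and by 0.18 (adjusted p = 0.447) with a pseudocount 10 times as large, which lies near the level of the 5p arm. Leave-one-out values that were never called ran from 0.01 to 0.12 for the ratio of miR-27a-3p to miR-27b-3p, from 0.07 to 0.16 for miR-23a-3p to miR-27a-3p and from -0.19 to -0.06 for miR-23b-3p to miR-27b-3p. They ran from 0.14 to 0.31 for miR-27a-3p, from 0.12 to 0.29 for miR-27b-3p and from 0.13 to 0.28 for the 5 guide strands together. Over the other alternatives the limma adjusted p of miR-23a-3p ran from 0.0850 with median-of-ratios scaling to 0.388 without trend. With depth as a covariate 0 members were called. The log2 difference was then 0.39 for miR-23a-3p, 0.14 for miR-23b-3p, 0.25 for miR-27a-3p and 0.26 for miR-27b-3p. It was 0.24 for miR-24-3p and 0.49 for miR-27b-5p (limma adjusted p = 0.596).

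The replicate numbers did not pair the libraries. Same-numbered libraries had correlations of their deviations from -0.0943 to 0.0949, of which 0 of 6 exceeded 0.1, and 0 libraries correlated best with their own number. With a replicate block the number of members called was 0, the count over all miRNAs stayed at 14, and the log2 difference of miR-23a-3p was 0.38 (limma adjusted p = 0.190). For the ratio of miR-23a-3p to miR-23b-3p the block gave 0.28 (exact permutation adjusted p = 0.25), and it changed no other call.

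The 14 calls over all miRNAs became 6 with a pseudocount of 1 FPKM, 7 without a filter, 8 with a filter on the mean, 8 with depth as a covariate and 0 with the permutation test, whose smallest p is limited by 12 libraries. They were 6 without young replicate 3, 7 without aged replicate 2, and 8 to 9 without any other aged library. The count rose to 17 with median-of-ratios scaling, 16 without young replicate 6 and 15 without young replicate 4. The pseudocount of 1 moved the median difference of all miRNAs from 0.07 to 0.18, but that of miR-23a-3p stayed at 0.38. Depth limits miR-27b-5p and the other 5p arms most.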
